A study of Mus musculus with 18 samples.

Results

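A set of 9 genes that mark astrocytes, among them the main glutamate transporters of glia, were followed in 3 brain regions of mice with and without the transcription factor Nrf2. The genes were Slc1a2, Slc1a3, Gfap, Vim, Aqp4, Gja1, Aldoc, S100b and Aldh1l1. They were chosen by name, through the accession that the array files give for each probe, and they had 15 probes of 41174 and made up 9 of the 22668 genes tested. All 15 probes were well above background on all 18 arrays. The 6 groups were Nrf2 knockout (KO) cortex, hippocampus and brainstem and wild-type (WT) cortex, hippocampus and brainstem, each with 3 arrays. All mice were male and of strain 129SV, and the study describes them as unstressed. Their age and the knockout allele are not given in the sources used here. RNA from each tissue was labelled with Cy3 and hybridised alone to a 1-colour Agilent array. The design text calls the 3 RNAs of a group independent, without saying whether each came from 1 animal.

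Astrocytes take up the glutamate that neurons release, turn it into glutamine and hand it back. Slc1a2 (GLT-1) and Slc1a3 (GLAST) are the transporters of that uptake, and both are known to differ in use between brain regions. Gfap and Vim encode the intermediate filaments of the astrocyte skeleton, Aqp4 the water channel of the end-feet on blood vessels, and Gja1 (connexin 43) the gap junctions that couple astrocytes. Aldoc encodes a glycolytic aldolase, S100b a calcium-binding protein and Aldh1l1 a folate enzyme. Nrf2, encoded by Nfe2l2, switches on genes for antioxidant and detoxifying enzymes, and in astrocytes it is known to supply glutathione.

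A level is the log2 intensity of a probe minus the 75th percentile of its array, so that 0 is that percentile and 1 unit is a 2-fold step. A difference is between group means of such levels, ± SE, and a gene was called when limma's p, adjusted over all genes tested, was under 0.05. Levels of different probes were not compared, since brightness depends on the probe. In tissue RNA, fewer cells of a type and less RNA per cell cannot be told apart.

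The genotype labels were checked on Nfe2l2 itself. Its mean level was -7.92 in KO cortex against 0.89 in WT cortex, -4.64 in KO hippocampus against 0.96 in WT hippocampus, and -6.25 in KO brainstem against 1.26 in WT brainstem. The probe was not well above background on any KO cortex array, was above it on all 3 KO hippocampus arrays and on 1 of 3 KO brainstem arrays. The KO cortex level was at least 158-fold lower than in WT cortex (limma adjusted p = 1.92e-06). Between 65.3% and 75.1% of the spots were well above background on each array. In the authors' deposited table of the whole series, the values under the third KO cortex sample and under all 6 hippocampus samples were those of another array's scanner file. The scanner files were used here under their own labels, and in them Nfe2l2 ran from -8.39 to -3.62 on the 9 KO arrays and from 0.79 to 1.39 on the 9 WT arrays. The cortex arrays lay on slides of their own, so that slide and region cannot be told apart in differences from cortex. Brainstem and hippocampus shared 1 slide of the 3 they lay on, and both genotypes of a region lay on every slide used for it.

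None of the 9 genes was called between KO and WT in any region, whereas 7 of them were called between regions. Slc1a2 and Slc1a3 were lower in brainstem than in cortex and hippocampus, while Aqp4, S100b and Aldoc were higher in brainstem than in either. Gfap was lowest in cortex, and Aldh1l1 was lowest in hippocampus. Gja1 and Vim were called between no 2 regions. The plot of levels by group shows all 9 genes.

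**Figure D1:**
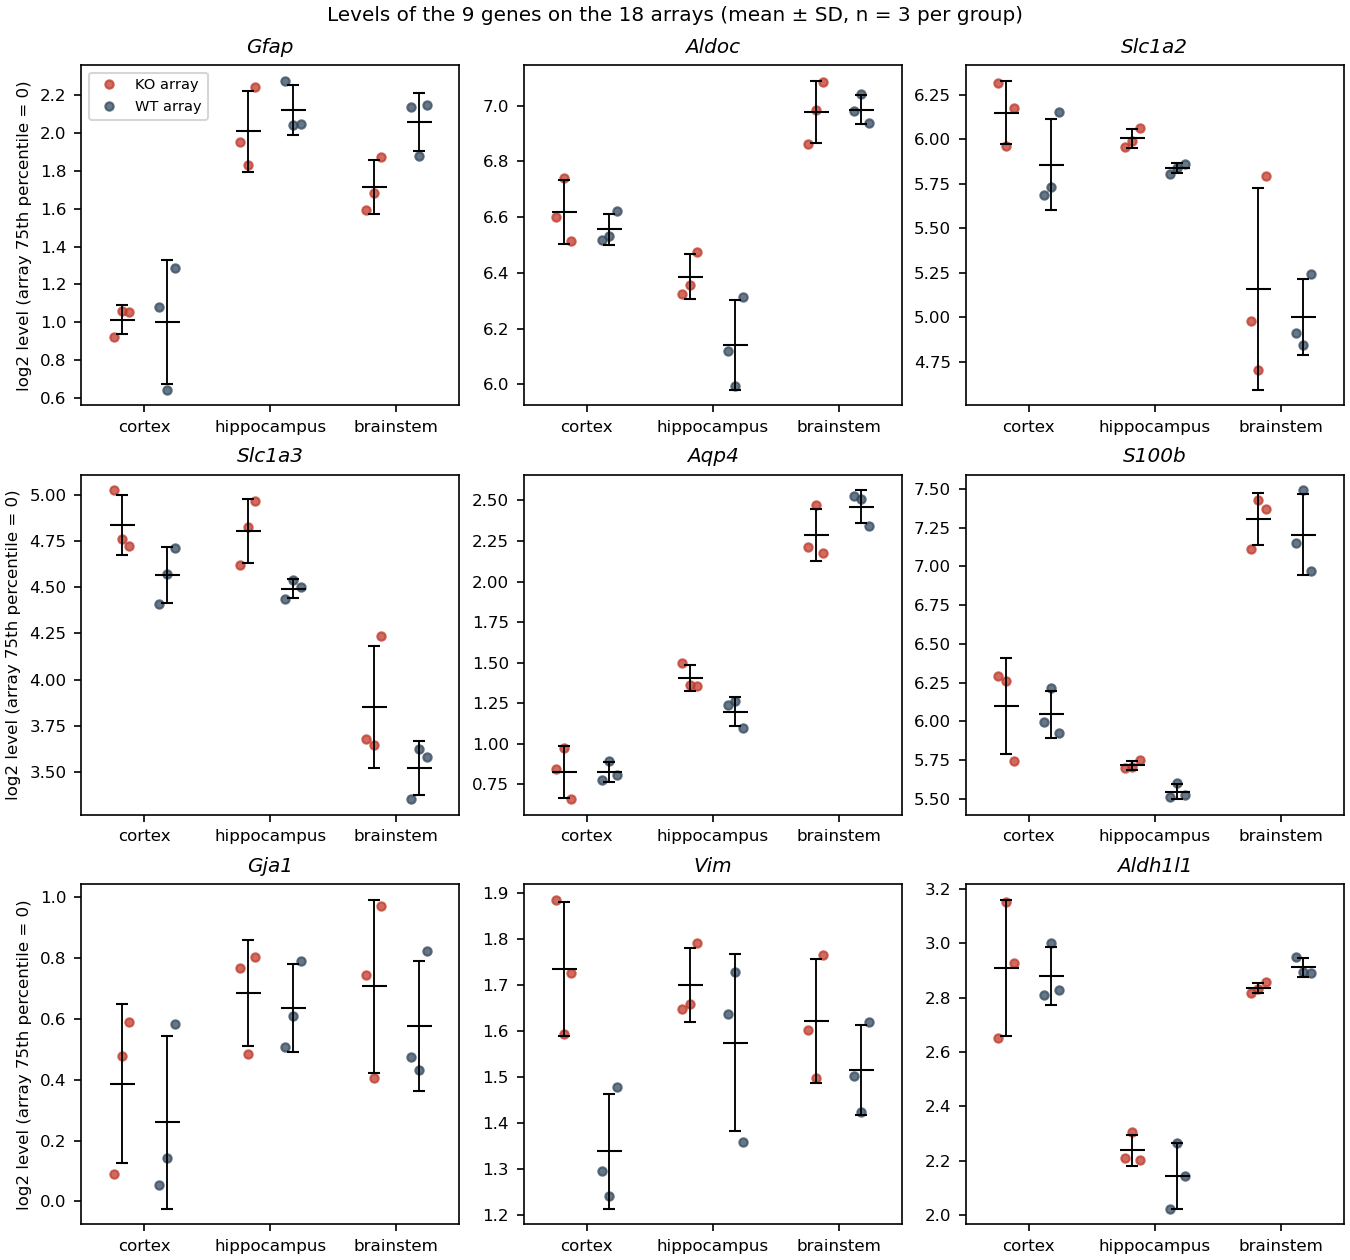
Log2 level of the probe used for each of the 9 genes (y axis, the 75th percentile of the array is 0) in KO (red, left) and WT (grey, right) arrays of cortex, hippocampus and brainstem. Points are single arrays, the black marks are the mean ± SD of 3 arrays, and the y axes differ between panels. Within each genotype, the brainstem points of Slc1a2 and Slc1a3 sit below those of cortex and hippocampus, and the third KO brainstem array lies above the other 2 in both panels.

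The glutamate transporters come first. The 250 bases before their starts are shown because Nrf2 acts through a short promoter element. Slc1a3 was picked out by its values in these data. Its KO arrays lay above the WT arrays in every region, though no such difference was called. The letters searched for were TGANNNNGC, a loose form of the core of that element, on both strands, and matches are in capitals. A match is therefore not by itself an Nrf2 element. The sequences are RefSeq's, build GRCm38.p6, read 5′ to 3′ on the gene's strand. Slc1a2 is at chr2:102706188-102706437 on the plus strand and Slc1a3 at chr15:8710808-8711057 on the minus strand.
Slc1a2: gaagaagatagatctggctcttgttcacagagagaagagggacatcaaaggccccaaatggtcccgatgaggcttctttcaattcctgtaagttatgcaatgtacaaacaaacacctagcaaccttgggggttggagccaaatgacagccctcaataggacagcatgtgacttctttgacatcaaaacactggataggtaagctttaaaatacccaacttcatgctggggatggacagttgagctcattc
Slc1a3: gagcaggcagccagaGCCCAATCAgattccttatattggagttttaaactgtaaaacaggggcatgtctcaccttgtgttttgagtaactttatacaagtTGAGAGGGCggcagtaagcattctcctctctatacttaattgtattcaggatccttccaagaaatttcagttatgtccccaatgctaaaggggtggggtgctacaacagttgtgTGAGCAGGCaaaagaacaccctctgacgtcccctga
Slc1a3 had 3 matches, whose first bases lay 235, 150 and 36 bases before the start, and Slc1a2 had none. Of all 32851 promoters of this length, 35.2% held a match and 1.06% held 3 or more. Promoters were given for 8 of the 9 genes, 9 in all, and 4 of these 9 held a match, in Slc1a3, Gja1, S100b and 1 of 2 Aldoc promoters. A STAT site, with the letters TTCNNNGAA, which read the same on both strands, was present in 2 of the 9, in Slc1a3 and in 1 Aldoc promoter, against 7.02% of all. These are matches of loose letters, given as a description, and not measured binding. Whether Nrf2 acts on these promoters was not tested.

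Slc1a2, the transporter that carries most glutamate uptake in the forebrain, had levels of 4.98, 4.70 and 5.79 in KO brainstem against 4.91, 4.85 and 5.25 in WT brainstem. Its levels were 5.96, 5.99 and 6.06 in KO hippocampus against 5.81, 5.84 and 5.86 in WT hippocampus. In cortex they were 6.32, 5.96 and 6.17 in KO against 5.69, 5.73 and 6.15 in WT. Within each genotype brainstem therefore lay below hippocampus and cortex, which overlapped. Brainstem levels were 1.99-fold lower than cortex levels in KO (difference -0.99 ± 0.22, adjusted p = 0.00235) and 1.81-fold lower in WT (-0.86 ± 0.22, adjusted p = 0.00628). Against hippocampus, brainstem was 1.80-fold lower in KO (-0.85 ± 0.22, adjusted p = 0.00608) and 1.78-fold lower in WT (-0.83 ± 0.22, adjusted p = 0.00636). With the slide as a block those last differences shrank to -0.37 in KO and -0.36 in WT and were no longer called (adjusted p = 0.175 in KO and 0.186 in WT). In that fit the step between these regions rests on the slide that held both.

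Slc1a3, the transporter that prevails in radial glia and in the Bergmann glia of the cerebellum, followed the same order. Its levels were 3.68, 3.65 and 4.24 in KO brainstem against 3.36, 3.63 and 3.59 in WT brainstem. They were 4.62, 4.82 and 4.97 in KO hippocampus against 4.44, 4.54 and 4.50 in WT hippocampus, and 5.02, 4.76 and 4.72 in KO cortex against 4.41, 4.57 and 4.71 in WT cortex. Every KO array lay above every WT array of its own region, in cortex by 0.01 at the nearest. Brainstem was 1.97-fold lower than cortex in KO (difference -0.98 ± 0.15, adjusted p = 0.000155) and 2.06-fold lower in WT (-1.04 ± 0.15, adjusted p = 9.00e-05). Against hippocampus the difference was -0.95 ± 0.15 in KO and -0.97 ± 0.15 in WT (adjusted p = 0.00017 and 0.000136). With the slide as a block, which again rests on the shared slide, it was -0.61 in KO and -0.63 in WT and was still called.

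In KO brainstem, 1 array stood above the other 2 for both transporters. With each array left out in turn, KO brainstem minus cortex ran from -1.31 to -0.76 for Slc1a2. For Slc1a3 it ran from -1.17 to -0.88. Against hippocampus the ranges were -1.16 to -0.62 for Slc1a2 and -1.14 to -0.85 for Slc1a3. No omission ended any of these calls. The third KO brainstem array, which shared its slide with hippocampus arrays, had the highest brainstem level of Slc1a2 and of Slc1a3. On that slide the brainstem minus hippocampus difference, 1 array each, was -0.17 in KO and -0.56 in WT for Slc1a2, and -0.38 in KO and -0.85 in WT for Slc1a3. The slide block above rests on these same arrays and is not separate from them. Of the other 3 probes of Slc1a2, only A_52_P168496 was also highest on the third KO brainstem array, by a smaller step. The probe A_52_P168496, on the same transcript accession, read 2.33, 2.33 and 2.43 in KO brainstem against 2.24, 2.21 and 2.22 in WT brainstem, and on the shared slide it gave -0.44 in KO and -0.45 in WT. The probe A_52_P178651, also on that accession, gave -0.43 in KO and -0.47 in WT on the same slide. The dimmest, A_51_P477875, on the other accession, read lowest on the third KO brainstem array, at -1.37, -1.88 and -2.25 in KO brainstem against -1.65, -1.27 and -1.59 in WT brainstem, and on the shared slide it gave -1.33 in KO and 0.06 in WT. The mean level of 8 choroid plexus genes was -0.32 on the third KO brainstem array, against -3.19 and -3.45 on the other 2. On the third WT brainstem array, which lay on the same slide, it was -1.52, against -3.32 and -3.54 on the other 2 of WT. The part of choroid plexus tissue in these levels was not tested.

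Slc1a2 has 4 probes, and 3 of them carry 1 transcript accession. Between WT brainstem and WT cortex these 3 gave differences of -0.86, -0.71 and -0.57, each called. The fourth, A_51_P477875, has another accession and gave -0.69 ± 0.37 (adjusted p = 0.169), with levels of -1.37, -1.88 and -2.25 in KO brainstem. In KO cortex its 3 arrays read 0.13, -0.90 and -1.57, the widest spread of any member probe there.

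Between KO and WT, the Slc1a2 difference was 0.29 ± 0.22 for cortex, 0.17 ± 0.22 for hippocampus and 0.16 ± 0.22 for brainstem, all short of the threshold. Without the third KO brainstem array the brainstem difference turned to -0.16 on this probe, the one used for the gene. The probe A_52_P168496 gave 0.28 ± 0.11 for cortex, 0.07 ± 0.11 for hippocampus and 0.14 ± 0.11 for brainstem. A_52_P178651 gave 0.20, 0.12 and 0.17, and A_51_P477875 gave 0.03, -0.11 and -0.33. None of these was called. For Slc1a3 the KO minus WT difference was 0.27 ± 0.15 for cortex, 0.31 ± 0.15 for hippocampus and 0.33 ± 0.15 for brainstem. Averaged over the regions, its KO level was 1.24-fold that of WT (difference 0.30 ± 0.089, 95% interval 0.11 to 0.49), with an unadjusted p of 0.00391 and an adjusted p of 0.665 by limma. On the slide that held 1 KO and 1 WT cortex array the Slc1a3 difference was 0.01, against 0.40 on the slide with 2 of each.

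The other members of the family were measured on all 18 arrays, except Slc1a7, which was not tested. Slc1a6 (EAAT4), a transporter of Purkinje and other neurons, had a mean level of 3.89 in KO brainstem and 3.88 in WT brainstem, against 2.83 in KO cortex and 2.80 in WT cortex. Its brainstem minus cortex difference was 1.06 ± 0.088 in KO and 1.07 ± 0.088 in WT (adjusted p = 3.33e-07 and 3e-07), opposite in sign to the glial transporters. Slc1a1 (EAAC1), the transporter found widely on neurons, was higher in hippocampus than in cortex by 0.42 ± 0.094 in KO and 0.35 ± 0.094 in WT, and lower in brainstem than in hippocampus by 0.59 in KO and 0.57 in WT. Slc1a4, a neutral amino acid transporter, differed between brainstem and hippocampus by 0.26 in KO and 0.47 in WT (adjusted p = 0.0359 and 0.000944). Slc1a5, another neutral amino acid transporter, was called in no comparison. None of these 4 was called between KO and WT.

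The filament genes behaved differently from the transporters. Gfap, the classic astrocyte filament, had levels of 0.92, 1.06 and 1.06 in KO cortex against 1.08, 0.64 and 1.29 in WT cortex. In hippocampus they were 1.95, 1.83 and 2.24 in KO against 2.28, 2.04 and 2.05 in WT, and in brainstem 1.59, 1.68 and 1.87 in KO against 2.14, 1.88 and 2.15 in WT. Cortex was thus lowest with no overlap, while brainstem and hippocampus were not called apart. Hippocampus was higher than cortex by 1.0 ± 0.16 in KO and 1.12 ± 0.16 in WT, which is 1.99-fold and 2.17-fold. Brainstem was higher than cortex by 0.70 ± 0.16 in KO and 1.05 ± 0.16 in WT (adjusted p = 0.00255 and 9.04e-05).

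In brainstem, all 3 KO arrays of Gfap lay below all 3 WT arrays. The difference was -0.34 ± 0.16 (95% interval -0.68 to -0.01), with an unadjusted p of 0.0452 and an adjusted p near 1. The second Gfap probe, A_52_P540991, is on another transcript accession and was lower in KO by 0.54 ± 0.22 in brainstem. It gave -0.21 in cortex and -0.27 in hippocampus, where the first probe gave 0.01 and -0.11. Neither probe was called. Between hippocampus and cortex in WT the second probe gave 1.0 ± 0.22, close to the 1.12 of the first.

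Vim, a filament that astrocytes share with endothelial, meningeal and ependymal cells, had levels of 1.88, 1.59 and 1.72 in KO cortex against 1.30, 1.24 and 1.48 in WT cortex. This was the gene with the smallest unadjusted p among the 9 in cortex: the difference was 0.40 ± 0.12, 1.32-fold (95% interval 0.14 to 0.65), with an unadjusted p of 0.00439 and an adjusted p near 1. Its KO and WT ranges overlapped in hippocampus, with means of 1.70 and 1.57, and in brainstem, with means of 1.62 and 1.52. Averaged over the regions the difference was 0.21 ± 0.068 (adjusted p = 0.708). The mean level of 12 endothelial and mural genes in cortex was 0.28, 0.10 and 0.26 in KO against 0.21, 0.02 and -0.04 in WT. That of 8 meningeal and fibroblast genes was 1.54, 1.16 and 1.53 in KO against 1.12, 1.28 and 1.23 in WT. Their part in the Vim level was not tested.

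The membrane genes were split. Aqp4, the water channel of astrocyte end-feet, rose in steps across the regions. Its levels were 0.84, 0.98 and 0.66 in KO cortex against 0.78, 0.89 and 0.81 in WT cortex. They were 1.5, 1.36 and 1.35 in KO hippocampus against 1.24, 1.26 and 1.1 in WT hippocampus, and 2.21, 2.47 and 2.17 in KO brainstem against 2.53, 2.51 and 2.34 in WT brainstem. No 2 regions overlapped. Hippocampus was higher than cortex by 0.58 ± 0.11 in KO and 0.37 ± 0.11 in WT (adjusted p = 0.00158 and 0.0255). Brainstem was 2.75-fold higher than cortex in KO and 3.1-fold higher in WT (differences 1.46 ± 0.11 and 1.63 ± 0.11). Brainstem was also higher than hippocampus, by 0.88 ± 0.11 in KO and 1.26 ± 0.11 in WT.

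The KO arrays of Aqp4 lay above the WT arrays in hippocampus, with a difference of 0.21 ± 0.11, and overlapped them in brainstem, with -0.17 ± 0.11. The difference between these effects was -0.38 ± 0.15 (unadjusted p = 0.0237, limma adjusted p = 1.0) and was not called. The other 2 Aqp4 probes, A_52_P25710 and A_52_P625527, gave 0.03 and 0.06 in hippocampus and -0.22 and -0.17 in brainstem. Both showed the rise from region to region, with brainstem minus cortex differences in WT of 1.89 and 1.79.

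Gja1, the main gap junction protein of astrocytes, was measured by 1 probe spotted 10 times. Its mean level was 0.71 ± 0.28 in KO brainstem and 0.58 ± 0.21 in WT brainstem, 0.68 ± 0.17 in KO hippocampus and 0.63 ± 0.14 in WT hippocampus, and 0.39 ± 0.26 in KO cortex and 0.26 ± 0.28 in WT cortex (SD, n = 3 each). All 6 ranges overlapped in part, and no difference between regions or genotypes was called. The nearest was hippocampus minus cortex in WT at 0.38 ± 0.18 (adjusted p = 0.193), which was called only with the replicate number as a block (adjusted p = 0.0425). Gjb6 (connexin 30), its partner in astrocyte junctions, was higher in brainstem than in hippocampus by 0.68 in KO and 0.81 in WT (adjusted p = 0.014 and 0.00476). Against cortex Gjb6 differed by 0.40 in KO (adjusted p = 0.147) and rose by 0.62 in WT brainstem (adjusted p = 0.026).

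The 3 genes of metabolism and calcium binding had their lowest mean level in hippocampus. Aldoc, the aldolase of brain glycolysis, had levels of 6.86, 6.99 and 7.09 in KO brainstem against 6.98, 7.04 and 6.94 in WT brainstem. They were 6.60, 6.74 and 6.52 in KO cortex against 6.52, 6.53 and 6.62 in WT cortex, and 6.32, 6.36 and 6.48 in KO hippocampus against 6.12, 5.99 and 6.31 in WT hippocampus. Brainstem was higher than hippocampus by 0.59 ± 0.098 in KO and 0.84 ± 0.098 in WT, and higher than cortex by 0.36 ± 0.098 in KO and 0.43 ± 0.098 in WT. Hippocampus was lower than cortex in WT (-0.41 ± 0.098, adjusted p = 0.00908), and in KO the difference of -0.23 ± 0.098 missed the threshold (adjusted p = 0.128). In hippocampus the KO arrays of Aldoc lay above the WT arrays, with a difference of 0.24 ± 0.098, an unadjusted p of 0.0262 and an adjusted p near 1.

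S100b, which oligodendrocytes and ependyma also make, had the highest fold in brainstem of the 9 genes against hippocampus. Its levels were 7.11, 7.43 and 7.37 in KO brainstem against 7.15, 7.49 and 6.97 in WT brainstem. In hippocampus they were 5.70, 5.70 and 5.75 in KO against 5.51, 5.60 and 5.53 in WT, and in cortex 6.29, 6.26 and 5.74 in KO against 6.0, 6.22 and 5.92 in WT. Brainstem was 3.01-fold higher than hippocampus in KO and 3.16-fold higher in WT (differences 1.59 ± 0.15 and 1.66 ± 0.15). Against cortex it was 2.30-fold higher in KO and 2.23-fold higher in WT. Hippocampus was lower than cortex by 0.50 ± 0.15 in WT (adjusted p = 0.0385), a call that 7 of the 18 single-array omissions ended, and in KO the difference was -0.38 ± 0.15 (adjusted p = 0.113). Between brainstem and cortex 35.6% of all genes were called in KO and 35.8% in WT. All 10 oligodendrocyte markers were called higher in brainstem in both, with a median difference of 1.18 in KO and 1.14 in WT. Their part in the S100b level was not tested.

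Aldh1l1, the folate enzyme used as a general astrocyte marker, was called lower in hippocampus than in either other region. Its levels were 2.21, 2.30 and 2.20 in KO hippocampus against 2.02, 2.26 and 2.14 in WT hippocampus. In brainstem they were 2.82, 2.83 and 2.86 in KO against 2.95, 2.89 and 2.89 in WT, and in cortex 2.65, 3.15 and 2.93 in KO against 2.81, 3.0 and 2.83 in WT. Hippocampus was 1.59-fold lower than cortex in KO and 1.67-fold lower in WT (differences -0.67 ± 0.11 and -0.74 ± 0.11, adjusted p = 0.000737 and 0.000337). Brainstem was higher than hippocampus by 0.60 ± 0.11 in KO and 0.77 ± 0.11 in WT, and it was not called apart from cortex. In brainstem the KO arrays lay below the WT arrays by a small step, with a difference of -0.08 ± 0.11.

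Counted over the 9 genes, 6 were called between brainstem and cortex in KO and 6 in WT, where 35.6% and 35.8% of all genes were called. The 6 were Gfap, Aldoc, Aqp4 and S100b, higher, and Slc1a2 and Slc1a3, lower, in each genotype. Between brainstem and hippocampus, 6 were called in KO and 6 in WT, against 40.6% and 41.5% of all genes: Aldoc, Aqp4, S100b and Aldh1l1, higher, and Slc1a2 and Slc1a3, lower. Between hippocampus and cortex, 3 were called in KO and 5 in WT, against 16.6% and 17.2% of all genes. The 2 genotypes share no arrays in these comparisons, but their counts are not independent. KO and WT arrays of a region lay on the same slides, so an offset between slides would recur in both. Same-numbered KO and WT arrays of a region deviated together (Pearson r 0.24 to 0.62 in 9 pairs). The variance of each gene was also estimated over all arrays jointly.

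Between KO and WT, 0 of the 9 genes were called in cortex, hippocampus or brainstem by limma, against 0.0309%, 0.0176% and 0.0309% of all genes. At an unadjusted limma p under 0.05 there were 1, 1 and 2 of the 9, against 496, 301 and 670 of all 22668 genes. Averaged over the regions 0 were called, against 0.0529% of all genes, and 2 had an unadjusted p under 0.05, against 1575 of all genes. The 9 differences ran from 0.00 to 0.40 in cortex, from -0.11 to 0.31 in hippocampus and from -0.34 to 0.33 in brainstem, with medians of 0.06, 0.17 and 0.10. The medians over all genes were 0.00, 0.02 and 0.00. The 95% intervals reached from -0.32 to 0.76 in cortex, from -0.45 to 0.64 in hippocampus and from -0.68 to 0.66 in brainstem, and differences within these intervals remain possible with 3 arrays a group.

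KO and WT arrays did not overlap for 2 of the 9 genes in cortex, 5 in hippocampus and 3 in brainstem, against 6.07%, 7.75% and 6.59% of all genes. These were Slc1a3 and Vim in cortex, both higher in KO. In hippocampus they were Aldoc, Slc1a2, Slc1a3, Aqp4 and S100b, again higher in KO, with S100b at 0.17 ± 0.15. In brainstem they were Slc1a3, higher in KO, and Gfap and Aldh1l1, lower. No gene had an effect that differed between regions by limma: 0 of 9 were called in each of the 3 region pairs, against 0% of all genes. At an unadjusted p under 0.05 there were 0, 0 and 1 of the 9, against 189, 200 and 222 of all 22668 genes.

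**Figure D2:**
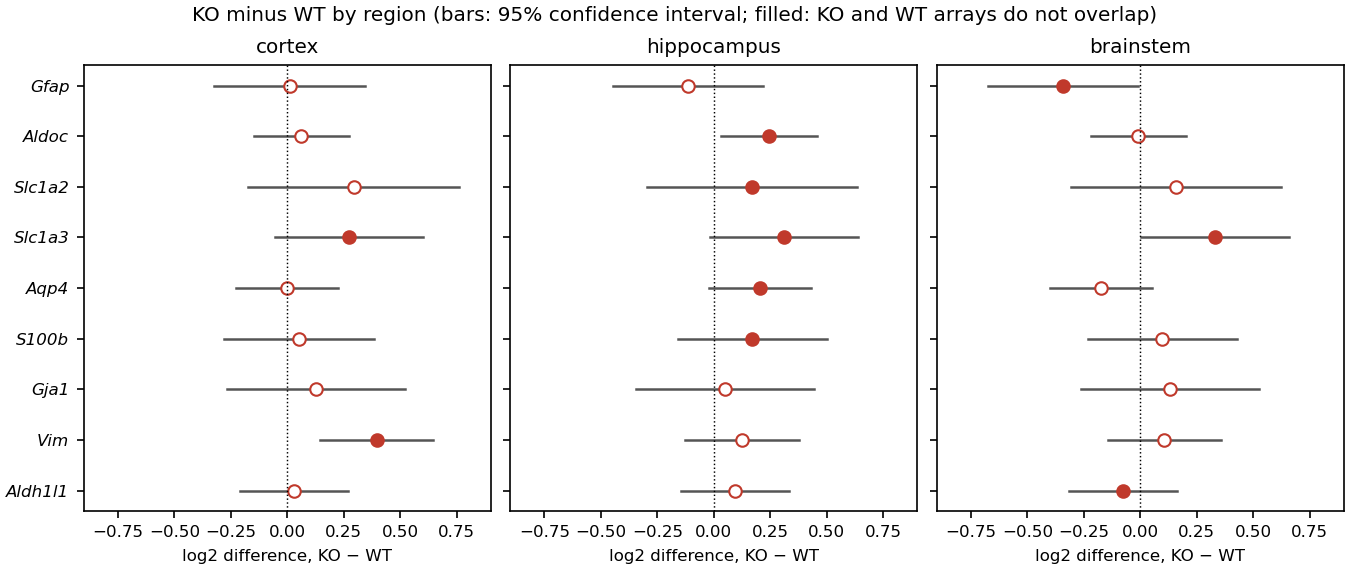
KO minus WT difference in log2 level (x axis) for the 9 genes (rows) in each region. Points are limma estimates over 3 arrays a group, bars are 95% confidence intervals, and filled points mark genes whose KO and WT arrays do not overlap. Slc1a3 is filled in all 3 regions, between 0.27 and 0.33, and Gfap lies at -0.34 in brainstem.

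**Figure D3:**
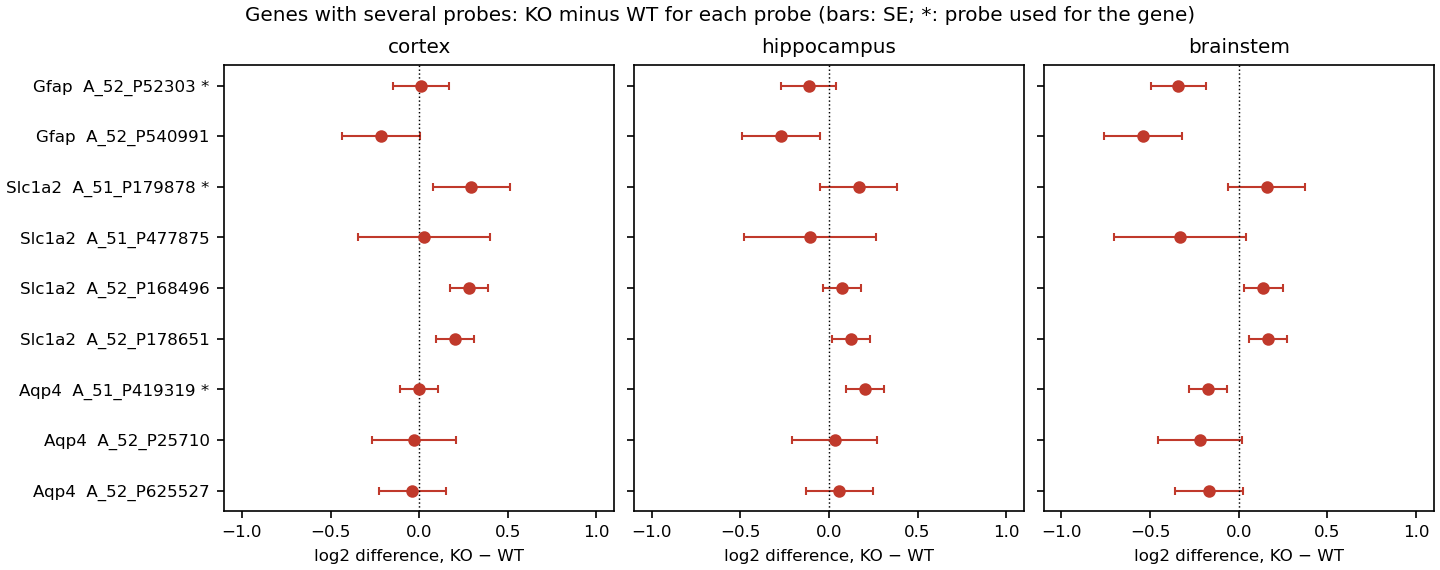
KO minus WT difference in log2 level (x axis, bars are the SE) for each probe of the 3 genes with several probes (rows), by region. Both Gfap probes lie below 0 in brainstem, and the Slc1a2 probe A_51_P477875 has the widest bars.

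Within a group, some arrays deviated in both transporters at once. The third KO brainstem array lay above its group mean by 0.63 for Slc1a2 and by 0.38 for Slc1a3. On the third WT cortex array both were also above their group mean, by 0.30 and 0.15. For Slc1a2 the third array was above in every group, by 0.02 in KO cortex, 0.03 in WT hippocampus, 0.06 in KO hippocampus and 0.24 in WT brainstem. For Slc1a3 it was at -0.11 in KO cortex, 0.01 in WT hippocampus, 0.16 in KO hippocampus and 0.06 in WT brainstem. The third array was also above its mean in every group for Gja1, below it in every group for Aqp4, and mixed in sign for the rest. The genes whose levels followed each member most closely over the 18 arrays, of 13320 compared, are given as a description, and differences between regions enter this likeness. For Slc1a2 they were Mllt1, Plxna2 and Cbx6, with Pearson r of 0.98, 0.98 and 0.97. For Slc1a3 they were Nr2e1, Sh3pxd2a and Stk35os1, for Aqp4 Lrch1, Bbox1 and Prkcd, and for S100b Zfp612, Casz1 and Ndufb8. Gfap was closest to Serpina3n, a serpin of reactive astrocytes, at 0.97, then to Dock11 and Amigo2. Aldoc was closest to Uqcrh, Slc32a1 and Lsm6, and Aldh1l1 to Ddah1, Tmem97 and Agmat. Gja1, with Nectin4, Nfs1 and Acad11, reached 0.89, and Vim, with Kdm5d, 6430550D23Rik and Mcm2, reached 0.82.

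**Figure D4:**
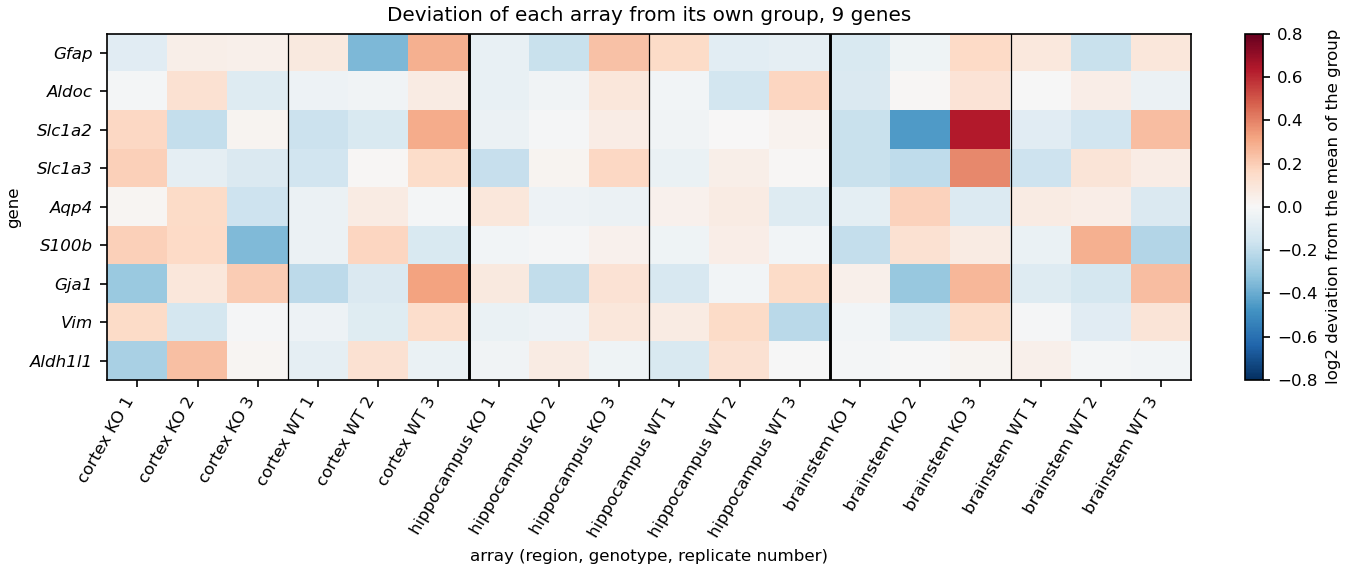
Deviation of each array (columns) from the mean of its own group, in log2 units (colour), for the 9 genes (rows). The third KO brainstem array is above its group for Slc1a2 by 0.63 and for Slc1a3 by 0.38, the darkest cells of the KO brainstem block in these rows.

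A wider list of 40 astrocyte genes leaned to brainstem. Between brainstem and cortex 35.6% of all genes were called in KO and 35.8% in WT. Of the 40, 18 rose and 4 fell in KO, and 19 rose and 5 fell in WT. Their median was 0.32 in KO and 0.36 in WT. The largest rises in WT were Itih3 at 2.19, Slc6a11, a GABA transporter, at 2.09, Slc4a4, a bicarbonate transporter, at 1.62, Kcnj10, the potassium channel Kir4.1, at 1.51 and Atp1b2 at 1.07. In KO, Slc7a10 at 1.02 stood in the place of Atp1b2, beside Itih3 at 2.53, Slc6a11 at 2.38, Slc4a4 at 1.56 and Kcnj10 at 1.39. The falls in WT were Chrdl1 at -4.08, Dio2, the enzyme that activates thyroid hormone, at -1.67, Hes5 at -0.91, Clu at -0.37 and Id4 at -0.37. In KO the falls were Chrdl1 at -4.13, Dio2 at -1.82, Hes5 at -0.91 and Clu at -0.52.

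Between brainstem and hippocampus 40.6% of all genes were called in KO and 41.5% in WT. Of the 40, 20 rose and 4 fell in KO, and 18 rose and 4 fell in WT. Slc6a11 rose by 2.44 in KO and 2.62 in WT, Itih3 by 2.48 and 2.58, Kcnj10 by 1.78 and 1.79, and Atp1b2 by 1.13 and 1.38. Slc4a4 rose by 1.15 in KO. Chrdl1, Dio2, Id4 and Clu fell in both genotypes. Between hippocampus and cortex 16.6% of all genes were called in KO and 17.2% in WT. Of the 40, 6 fell and 0 rose in each genotype, close to that share. Chrdl1 was at -3.03 in KO and -2.17 in WT, Hes5 at -0.92 and -1.17 and Dio2 at -0.97 and -0.93. Slc25a18 was at -0.49 in KO and -0.52 in WT, and Acsbg1 at -0.45 and -0.46. Between KO and WT none of the 40 was called in any region. The smallest unadjusted p were those of Itih3 and Hepacam in cortex (-0.51 ± 0.15 and 0.34 ± 0.14), Hepacam and Hes5 in hippocampus (0.27 and 0.46), and Hepacam and Cbs in brainstem (0.32 and -0.33). Over the mean of regions they were those of Hepacam, an adhesion protein of end-feet, at 0.31 ± 0.079 (adjusted p = 0.551), and Gpr37l1 at 0.20.

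Between brainstem and cortex 35.6% of all genes were called in KO and 35.8% in WT. Of 21 genes of the glutamate and glutamine cycle, 7 rose and 5 fell there in KO, and 8 rose and 6 fell in WT. The vesicular transporters of neurons moved most: Slc17a6 was at 3.26 in KO and 3.14 in WT, Slc17a8 at 2.34 and 2.24, and Slc17a7 at -3.74 and -3.48. Slc38a1 rose by 0.77 in KO and 0.72 in WT, and Slc38a2, another glutamine carrier, by 0.64 and 0.67. Grm5 was at -1.08 in KO and -1.0 in WT, Grm3, the glutamate receptor of astrocytes, at -0.88 and -0.89, and Slc25a22 at -0.69 and -0.68. Glul, glutamine synthetase, differed by -0.23 in KO and -0.13 in WT and was not called. Against hippocampus 40.6% of all genes were called in KO and 41.5% in WT. Of the 21, 9 rose and 6 fell in each genotype, again with Slc17a6, Slc17a8, Slc1a6, Slc38a1 and Slc38a2 as the largest rises. Falls there included Slc17a7 at -3.77 in KO and -3.56 in WT, Gria1 at -1.49 and -1.81, Grm5 at -1.40 and -1.42 and Slc25a22 at -0.94 and -0.90.

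Between hippocampus and cortex 16.6% of all genes were called in KO and 17.2% in WT. Of the 21, 3 rose and 4 fell in KO, and 3 rose and 1 fell in WT. Gria1 rose by 1.16 in KO and 1.22 in WT, beside Slc1a1. Slc38a1 was at -0.41 in KO and -0.42 in WT, and Slc17a6 at -0.73, Grm3 at -0.71 and Glud1 at -0.33 fell in KO. None of the 21 was called between KO and WT. The smallest unadjusted p were those of Grm3 and Slc38a2 in cortex (0.48 and -0.18), Slc38a2 and Slc1a6 in hippocampus (-0.23 and 0.15), and Gria1 and Grm3 in brainstem (0.42 and 0.49). Over the mean of regions Grm3 was at 0.37 ± 0.12 and Slc38a2 at -0.21 ± 0.069 (adjusted p = 0.708 for both).

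Between brainstem and cortex 35.6% of all genes were called in KO and 35.8% in WT. Of 18 genes known from reactive astrocytes, 8 rose and 2 fell there in KO, and 9 rose and 2 fell in WT. C3, a complement protein, was at 2.56 in KO and 3.06 in WT, Serpina3n at 1.32 and 1.46, Hspb1 at 0.81 and 0.98 and Synm at 0.80 and 0.94. Stat3 rose by 0.61 in KO and Serping1 by 0.67 in WT. Socs3 was at -1.03 in KO and -1.17 in WT, and S1pr3 at -0.43 and -0.40. Against hippocampus 40.6% of all genes were called in KO and 41.5% in WT. Of the 18, 9 rose and 1 fell in KO and 10 rose and 0 fell in WT. The rises were led by C3 at 1.79 in KO and 2.43 in WT, with Hspb1, Aspg, Cp and Serping1. Serpina3n fell there in KO, by 0.66. Between hippocampus and cortex Serpina3n rose by 1.97 in KO and 1.93 in WT, and Synm by 0.75 in WT. Socs3, Aspg, Timp1 and Nes fell in both genotypes and S1pr3 in WT. Thus 1 rose and 4 fell in KO, and 2 rose and 5 fell in WT, where 16.6% and 17.2% of all genes were called.

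None of the 18 reactive genes was called between KO and WT, and their median difference was -0.05 in cortex, -0.02 in hippocampus and -0.09 in brainstem. The smallest unadjusted p were those of Synm and S1pr3 in cortex (0.33 and -0.17), Cp and Hspb1 in hippocampus (-0.22 and -0.20), and Timp1 and C3 in brainstem (-0.40 and -0.69). Over the mean of regions they were those of Hspb1 and Cp (-0.28 and -0.18).

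A list of 10 genes covered the end-foot and the complex that holds Aqp4 there. Of these, 3 rose and 1 fell between brainstem and cortex in KO, and 3 rose and 0 fell in WT. That is close to the share of all genes called there, 35.6% in KO and 35.8% in WT. Kcnj10, a potassium channel, and Hepacam, an adhesion protein, are also in the wider astrocyte list. Kcnj10, Hepacam and Dag1, the dystroglycan that anchors the complex, rose, Hepacam by 0.66 in KO and 0.68 in WT and Dag1 by 0.30 and 0.34. Dmd, dystrophin, fell by 0.25 in KO. Against hippocampus 40.6% of all genes were called in KO and 41.5% in WT. Of the 10, 2 rose and 1 fell in each genotype, with Kcnj10 and Hepacam higher and Dmd at -0.32 in KO and -0.38 in WT. Between hippocampus and cortex 16.6% of all genes were called in KO and 17.2% in WT. The only calls of the list there were Kcnj10, lower by 0.39 in KO, and Dag1, higher by 0.33 in WT. None of the 10 was called between KO and WT. The smallest unadjusted p were those of Lama2 and Hepacam in cortex (Lama2 0.26), of Hepacam and Sntb1 in hippocampus (Sntb1 -0.29), of Hepacam and Dmd in brainstem (Dmd 0.18), and of Hepacam and Dmd over the mean of regions (Dmd 0.17).

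Markers of other cells moved between regions as well, while none of these lists had a gene called between KO and WT. Between brainstem and cortex, where 35.6% of all genes were called in KO and 35.8% in WT, 3 of 6 oligodendrocyte precursor markers rose in each genotype and 4 of 10 microglial genes fell in each. Of 8 ependymal markers 7 rose in KO and 5 in WT, and of 7 progenitor genes 6 fell in KO and 5 in WT. Of 12 endothelial and mural markers 0 were called in KO and 3 rose in WT, and of 8 meningeal markers 2 rose in KO and 3 in WT. Of 7 genes of cerebellum and Bergmann glia 4 rose and 2 fell in KO, and 4 rose and 1 fell in WT. Of 12 neuronal genes 4 rose and 4 fell in KO, and 3 rose and 4 fell in WT. Of 8 choroid plexus genes 1 rose in KO and 0 were called in WT. The differences between KO and WT in these counts were not tested. The mean level of the choroid plexus genes ran from -4.12 to -0.51 in KO cortex, from -3.22 to 0.72 in KO hippocampus and from -3.45 to -0.32 in KO brainstem. It ran from -1.89 to -0.77 in WT cortex, from -3.40 to 1.24 in WT hippocampus and from -3.54 to -1.52 in WT brainstem. The part of these cells in the levels of the 9 genes was not tested.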

How the data were processed

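Agilent 1-colour arrays of 18 samples were read from the deposited scanner files (Feature Extraction 10.7.3.1, per the file headers). The authors' deposited intensity is the scanner software's processed signal of each spot, listed beside a background-subtracted one, per the file headers. Control and outlier spots were left out (30 to 140 flagged spots an array), spots of a probe were averaged, and log2 intensity was centred on the 75th percentile of each array. Depth has no meaning for arrays: their number, 3 a group, limits the precision. A probe was kept if well above background on all arrays of a group (30063 probes), and of several probes the brightest on average represented the gene. Of 41174 probes 26690 had 1 symbol through RefSeq accessions and 14484 none. Spots at saturation numbered 0.

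A limma 3.58.1 model (R 4.3.3) with 1 mean for each of the 6 groups was fitted to 22668 genes with 13 contrasts and Benjamini-Hochberg adjustment, and it was tested on simulated data. p-values measure the spread between these RNAs. Motifs and figures used Python with pandas and matplotlib. KO and WT samples of a region that share a number deviated together (Pearson r 0.24 to 0.62 in 9 pairs). Each of these pairs also shared a slide, so number and slide cannot be fully told apart. Same-numbered arrays from different regions of 1 genotype had a median r of 0.22. Whether the numbers mark pairs is thus not settled, and the block by number was run as an alternative. Other alternatives were background correction, scaling, filter, probe choice, slide, samples fitted, moderation and single-array omissions. The slide entered as a fixed block, but for differences of a region from cortex as a correlation between arrays of a slide (0.245). The mean spot signal planned for one background correction is not used here, and the median spot signal took its place.

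All 9 members are described with every probe. Further genes are named by a fixed rule: in 4 related lists the up to 5 largest calls a direction, or the 2 smallest p where none was called, the family of Slc1a2, Gjb6 and Nfe2l2. Some genes that the rule names are not reported here. Members, lists and rules were chosen with earlier results of these data known.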

Additional observations from a re-analysis of the deposited data

How the results depend on the processing

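The 11 counts of called members and 51 member differences were recomputed under up to 16 alternatives and with each of 18 arrays left out. No member was called between KO and WT, or in the difference of that effect between regions, under any of them, the replicate block included, which changed no KO call. The count for WT hippocampus against WT cortex ran from 2 to 5 over the omissions (2 without the second WT hippocampus array and 3 without the first of either WT group or the third WT cortex array). With the replicate number as a block that count was 6, with Gja1 added. Leaving out 1 array ended the call of S100b in 7 cases, of Aqp4 in 4 and of Aldoc in 1, all in that comparison. S100b there also lost its call under quantile normalization, with no filter and with the slide block (adjusted p = 0.0823, 0.0672 and 0.0894), and in KO it gained one under median scaling (0.0415) and without the third KO cortex array (0.0171), where the KO count ran from 3 to 4. Slc1a2 lost its brainstem minus hippocampus call with the slide block, and its KO calls when only the compared groups were fitted (0.0578 and 0.0647). Aldoc, KO brainstem minus cortex, lost its call under median scaling and with only those groups (0.09 and 0.128). On the probe used for Slc1a2, the difference between KO and WT brainstem ran from -0.16 to 0.39 over the omissions. It was negative only without the third KO brainstem array. The cause of these changes was not tested. The authors' table of the whole series was not run: 11 of its 18 columns matched the array of their title within 0.497%, and 7 matched another array. All member probes were well above background on all 18 arrays. The dim probes still had larger SE than the probe used for their gene, 0.37 for A_51_P477875 against 0.22 for Slc1a2, and 0.22 for A_52_P540991 against 0.16 for Gfap. The part of dim signal in this was not tested.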
